A study of Mus musculus with 2 samples.

Results

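The genes followed here encode proteins that belong to central or peripheral myelin, or are attacked in demyelinating autoimmunity, and they were measured in medullary thymic epithelial cells (mTEC). They are Mbp, Mobp, Mog, Cnp, Omg, Pmp22, Pmp2 and Aqp4. The 8 genes were chosen by name, and all were among the 23411 genes compared. The cells were sorted from the thymus of B6 mice by their surface MHC class II, high or low. Each sort came from a pool of 3 mice and gave 1 library of polyadenylated RNA, and the labels give no other genotype or treatment. The genes held 138368543 reads in MHC-II high cells and 56077471 reads in MHC-II low cells. No group had a second library, so a difference between the fractions has no replicate check and carries no p-value.

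Myelin is the stacked membrane that oligodendrocytes wrap around axons of the brain and Schwann cells around axons of peripheral nerves. Its proteins are textbook self-antigens, since immunization of rodents with several of them causes paralysis by autoreactive T cells. The medulla of the thymus displays such tissue antigens to developing T cells, and the regulator Aire, found mainly in the MHC class II high fraction, switches on many of them. Aqp4 is no myelin protein but the water channel of astrocyte end-feet and the target of antibodies in neuromyelitis optica.

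A promoter window was available for 4 of the genes, and all 4 are shown so that genes of high and low level can be set side by side. Each window covers 250 bases before and 50 bases after the annotated start and comes from RefSeq on build GRCm38.p6, which is not the mm9 build of the deposited counts. Capitals mark the dinucleotide CG, and each sequence runs from 5′ to 3′ on the strand of the gene. The windows are chr11:100574689-100574988 on the plus strand for Cnp, chr11:63131207-63131506 on the plus strand for Pmp22, chr9:120149492-120149791 on the plus strand for Mobp and chr17:37023349-37023648 on the minus strand for Mog.
Cnp: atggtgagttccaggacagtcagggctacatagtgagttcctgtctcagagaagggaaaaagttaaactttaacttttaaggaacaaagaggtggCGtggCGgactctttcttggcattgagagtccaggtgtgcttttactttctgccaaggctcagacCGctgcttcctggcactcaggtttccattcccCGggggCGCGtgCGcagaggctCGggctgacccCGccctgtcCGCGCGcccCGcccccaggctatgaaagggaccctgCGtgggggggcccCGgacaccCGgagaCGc
Pmp22: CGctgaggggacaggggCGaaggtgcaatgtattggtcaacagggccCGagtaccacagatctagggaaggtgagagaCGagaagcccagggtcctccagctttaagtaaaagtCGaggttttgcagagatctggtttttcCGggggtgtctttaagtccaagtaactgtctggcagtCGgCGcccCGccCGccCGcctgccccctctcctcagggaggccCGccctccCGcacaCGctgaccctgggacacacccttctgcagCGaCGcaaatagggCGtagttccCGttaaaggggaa
Mobp: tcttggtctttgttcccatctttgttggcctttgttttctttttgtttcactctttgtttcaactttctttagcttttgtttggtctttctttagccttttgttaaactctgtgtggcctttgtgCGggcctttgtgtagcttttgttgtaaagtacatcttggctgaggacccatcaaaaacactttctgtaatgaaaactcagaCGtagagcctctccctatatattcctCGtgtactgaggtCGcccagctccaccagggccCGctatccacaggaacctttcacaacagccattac
Mog: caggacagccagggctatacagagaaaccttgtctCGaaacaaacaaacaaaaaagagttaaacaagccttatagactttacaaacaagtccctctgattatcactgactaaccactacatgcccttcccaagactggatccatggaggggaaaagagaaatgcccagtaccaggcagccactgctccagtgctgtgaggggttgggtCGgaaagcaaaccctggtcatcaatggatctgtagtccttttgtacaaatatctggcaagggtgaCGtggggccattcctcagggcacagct

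The Cnp window held 17 CG dinucleotides and the Pmp22 window 18, while the Mobp window held 5 and the Mog window 3. Over 32841 such windows the median was 7. At least 17 were found in 31.4% of all windows, at least 18 in 29.7%, at least 5 in 62.0% and at least 3 in 76.7%. The motif GGGCGG, read on both strands and allowed to overlap itself, was present at 2 positions in the Cnp window and 3 in the Pmp22 window, and 35.7% of all windows held it. Each GGGCGG contains a CG that the first count includes. It was not found in the Mobp and Mog windows, and TATAAA, which 13.6% of all windows held on either strand, was in none of the 4. For Pmp22, which has 4 windows in the table, the one nearest to the start of the counted transcript is shown.

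Levels were compared per kilobase of transcript, as CPM (reads for each 1000000 of the library total, scaled by TMM, the trimmed mean of M-values) per kilobase. The intervals are exact Poisson intervals at 95%, and, like all intervals here, they cover counting error only, since PCR reads without molecular identifiers are not independent molecules. Cnp stood first in both libraries, with 96.2 CPM per kilobase in MHC-II high cells and 45.4 in MHC-II low cells. Only 2.52% of all genes in MHC-II high cells and 6.997% in MHC-II low cells had a higher level than Cnp. Cnp alone made up 63.9% of the summed level of the 8 genes in MHC-II high cells and 50.6% in MHC-II low cells.

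In MHC-II high cells Cnp was followed by Mbp (23.7 CPM per kilobase), Pmp2 (21.7), Aqp4 (4.93), Pmp22 (2.67), Omg (0.985), Mobp (0.149) and Mog (0.0997). The intervals of neighbours in this order did not overlap except for Mobp (0.117 to 0.187) and Mog (0.0651 to 0.146). In MHC-II low cells the order after Cnp was Pmp22 (18.0 CPM per kilobase), Mbp (13.5), Aqp4 (7.78), Pmp2 (3.68), Mog (0.531), Omg (0.513) and Mobp (0.420). There the last 3 genes could not be ordered, as the intervals of Mog and Omg and of Omg and Mobp overlapped. Of the peripheral myelin genes, Pmp2 thus stood above Pmp22 in MHC-II high cells and below it in MHC-II low cells.

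**Figure D1:**
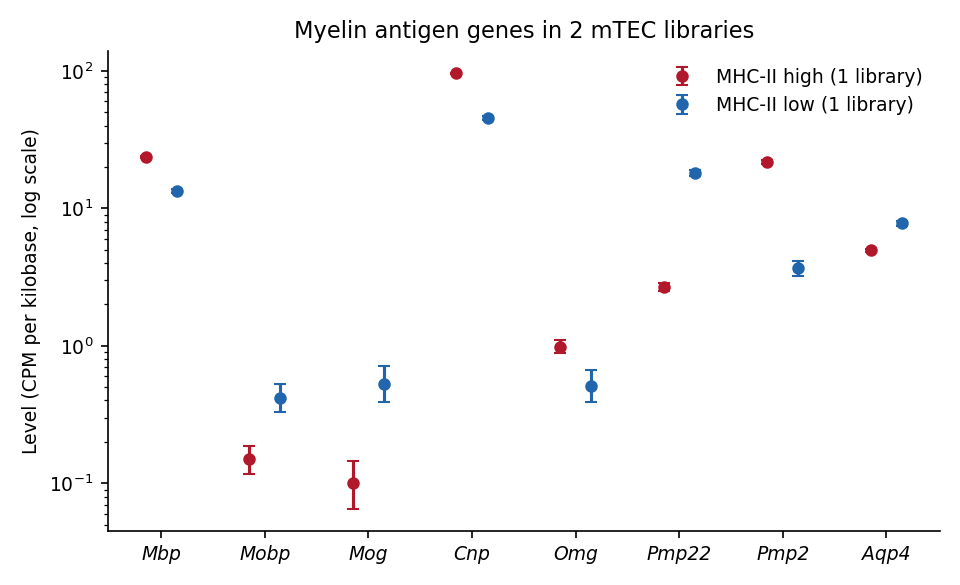
Level of each gene in CPM per kilobase (log scale) in the MHC-II high and MHC-II low library, with exact 95% Poisson intervals of the reads. Cnp is highest in both libraries at 96.2 and 45.4, and Omg, Mobp and Mog lie below 1 in both.

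The fractions were then compared gene by gene. Pmp2 and Cnp were higher in MHC-II high cells and Pmp22 was lower, each with its whole 95% Clopper-Pearson interval beyond 2-fold. Mbp, Omg and Aqp4 did not lie beyond 2-fold by their whole interval. Mog and Mobp had a mean below the minimum of 1 CPM over both libraries and were not counted. Among the 6 genes past the minimum, all of which had more than 1 CPM in both libraries, 2 were therefore higher and 1 lower. The same rule called 14.5% of 17438 genes higher and 10.9% lower, 25.4% in either direction, and with 6 genes no excess over that background can be read. Their median log2 ratio was 0.88, against -0.01 over all genes past the minimum. This median leaves out Mog (log2 ratio -2.41) and Mobp (-1.49), which were lower in MHC-II high cells, so it does not describe all 8 genes.

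Myelin basic protein, the product of Mbp, holds the cytoplasmic faces of the myelin membrane together. It had 17445 reads (114 CPM) in MHC-II high cells and 3292 reads (64.8 CPM) in MHC-II low cells. The ratio was 1.76 (interval 1.70 to 1.83), and 20.9% of the genes tested had a higher one. These values belong to NM_001025245, which is not a transcript of the classic protein. Besides the classic transcripts, Mbp has golli transcripts that start from a promoter far upstream and are known from lymphoid tissue and thymus as well as from neurons. Of the 8 Mbp transcripts listed, 2 carry the first 3 golli exons in the GENCODE vM21 annotation, and the other 6 are classic ones without them.

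The short golli transcript NM_001025245 has 4 exons, and 3953 of the 4384 bases of its last exon lie in an intron of all 7 other transcripts. It stood at 23.7 CPM per kilobase in MHC-II high cells and 13.5 in MHC-II low cells. The long golli transcript NM_010777, which joins the golli exons to classic ones, had 4457 reads or 11.5 CPM per kilobase in MHC-II high cells and 792 reads or 6.16 in MHC-II low cells. Classic transcripts ranged over 10.5 to 11.6 CPM per kilobase in MHC-II high cells, on 3378 to 3562 reads, and over 5.03 to 5.75 in MHC-II low cells, on 538 to 585 reads. These ranges hold largely the same reads, because the transcripts share exons.

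Reads of the short golli transcript exceeded those of the long one by 12988 in MHC-II high cells and 2500 in MHC-II low cells. If every read on a transcript's exons was counted for it, at least this many fell on bases outside the long transcript, which is 74.5% of the short golli reads in MHC-II high cells and 75.9% in MHC-II low cells. The long golli transcript in turn exceeded NM_001025256, a classic transcript, by 946 reads in MHC-II high and 212 in MHC-II low cells. Set against each classic transcript in the same way, at least 79.6% of the short golli reads in MHC-II high cells and 82.2% in MHC-II low cells fell outside it. Whether they are mature golli RNA or unspliced RNA of the locus was not tested. Represented by NM_001025251, the classic transcript with the most reads, Mbp had 3562 reads (23.3 CPM) in MHC-II high cells and 585 reads (11.5 CPM) in MHC-II low cells. Ratios of the 6 classic transcripts lay between 2.01 and 2.09, none with its whole interval beyond 2-fold. The long golli transcript, with 4457 reads in MHC-II high and 792 in MHC-II low cells, holds classic exons too. How many of the reads counted for classic transcripts came from classic RNA therefore cannot be told.

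**Figure D2:**
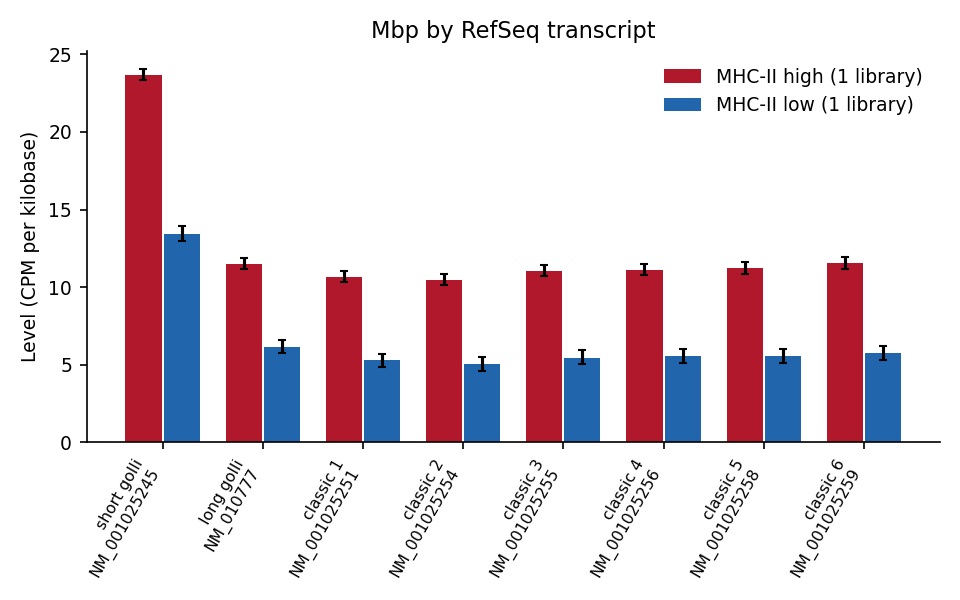
Level of each of the 8 listed Mbp transcripts in CPM per kilobase in the MHC-II high and MHC-II low library, with exact 95% Poisson intervals. The short golli transcript stands at 23.7 and 13.5, and the 6 classic ones at 10.5 to 11.6 and 5.03 to 5.75. Transcripts share reads.

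Mobp, a small basic protein of central myelin, had 75 reads (0.491 CPM) in MHC-II high cells and 70 reads (1.38 CPM) in MHC-II low cells. Its log2 ratio was -1.49, and the interval of the ratio (0.254 to 0.500) just reached 2-fold lower. Of the other listed transcripts NM_001039364 had 75 reads in MHC-II high and 69 in MHC-II low cells. The shorter NM_001039365 had 52 reads in MHC-II high and 26 in MHC-II low cells, and its ratio of 0.664 had limits of 0.407 and 1.11.

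Mog, an immunoglobulin-like protein on the outermost myelin layer and the standard antigen of experimental autoimmune encephalomyelitis in mice, stood with Mobp at the low end of the 8 in MHC-II high cells. It had 26 reads (0.170 CPM) there and 46 reads (0.906 CPM) in MHC-II low cells. The ratio was 0.188, 5.33-fold lower in MHC-II high cells, with limits of 3.22 and 8.98. Without the minimum Mog was called lower too, among 16.7% of 22947 genes called lower and 12.4% called higher. That direction was common among scarce genes, as 34.8% of 5509 genes with reads and a mean below 1 CPM were lower beyond 2-fold in MHC-II high cells and 5.57% were higher. Of all genes, 85.9% had a higher level than Mog in MHC-II high cells and 74.2% in MHC-II low cells.

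The enzyme encoded by Cnp, a cyclic nucleotide phosphodiesterase, is found in the uncompacted cytoplasmic parts of myelin. It had 34290 reads (224 CPM) in MHC-II high cells and 5379 reads (106 CPM) in MHC-II low cells. The ratio was 2.12 (interval 2.06 to 2.18), and 16.0% of the genes tested had a higher one. Its other transcript, NM_001146318, shared nearly all of these reads, 34001 in MHC-II high and 5320 in MHC-II low cells, and gave a ratio of 2.12 as well. Of the genes on either side of Cnp, Dnajc7, a chaperone gene, had a ratio of 1.26, and Ttc25 was 2.25-fold lower in MHC-II high cells (limits 2.09 and 2.44).

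Omg is a membrane-anchored glycoprotein of oligodendrocytes and neurons that inhibits axon growth through the Nogo receptor. It had 335 reads (2.19 CPM) in MHC-II high cells and 58 reads (1.14 CPM) in MHC-II low cells. The ratio of 1.92 had wide limits, 1.45 and 2.58, because of the few reads in MHC-II low cells. Omg lies within Nf1 on the opposite strand, so without strand information its reads cannot be told apart from unspliced Nf1 RNA. Nf1 itself, a brake on Ras signalling, was at 3.35 CPM per kilobase in MHC-II high and 3.88 in MHC-II low cells, with a ratio of 0.863 (0.823 to 0.906). Evi2, the next gene listed, had 359 reads in MHC-II high and 177 in MHC-II low cells and a ratio of 0.674 (0.561 to 0.811).

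Of 11 other genes of the Nogo receptor pathway past the minimum 1 was higher and 1 lower, where 25.4% of all genes were called, and their median log2 ratio was 0.10. When the larger read totals used for the deposited RPKM values (RPKM read totals) scaled the libraries, 6 of 10 were higher and 0 lower. Those totals called 7232 of all 16016 genes past the minimum higher and 471 lower. The list's median was then 1.16, against 0.997 over all genes. Rock1, a kinase downstream of the receptor, was 2.14-fold higher in MHC-II high cells, and the coreceptor gene Ngfr was 2.66-fold lower. The ligand gene Rtn4 was at 57.0 CPM per kilobase in MHC-II high and 49.4 in MHC-II low cells. Rhoa, the small GTPase of the pathway, had a log2 ratio of -0.28.

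Pmp22, a membrane protein of compact peripheral myelin whose gene, when duplicated in humans, causes a hereditary neuropathy, had a log2 ratio of -2.75, the most negative of the 6 genes past the minimum. It had 736 reads (4.82 CPM) in MHC-II high cells and 1642 reads (32.3 CPM) in MHC-II low cells. This was 6.72-fold lower in MHC-II high cells (limits 6.15 and 7.34), and 98.2% of the genes tested had a higher ratio. Its family moved the same way in part. Of 3 family genes past the minimum 2 were lower and 0 higher, against 10.9% and 14.5% of all genes. Emp1, an epithelial membrane protein gene, was 6.83-fold lower in MHC-II high cells, at 13.0 CPM per kilobase against 88.9, and Emp2 was 2.74-fold lower. Emp3 had a log2 ratio of -0.82, and Lim2, of the lens, was under the minimum. The list's median was -1.45, or -0.45 with RPKM read totals. Those totals called 1 of the 3 genes lower and 0 higher, where 471 of all 16016 genes were lower and 7232 higher. In contrast to Pmp22, the next listed gene Hs3st3b1 was 2.82-fold higher in MHC-II high cells with TMM scaling.

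Pmp22 is also made outside nerve, in fibroblasts and other connective tissue cells. All 10 endothelial markers were lower in MHC-II high cells, where 10.9% of all genes were lower. These markers summed to 90.0 CPM in MHC-II high and 628 CPM in MHC-II low cells. Of 10 fibroblast and mural markers 6 were lower and 0 higher, against 10.9% and 14.5% of all genes. That list summed to 446 CPM in MHC-II high and 1360 CPM in MHC-II low cells. No marker of either list was at 0 reads in either library. Emcn, a sialomucin of vessels, was down to 16 reads (0.105 CPM) in MHC-II high cells, against 650 (12.8 CPM) in MHC-II low cells. It passed the minimum only through MHC-II low cells. Rgs5, a pericyte gene, held 235 CPM of the fibroblast and mural sum in MHC-II high and 175 CPM in MHC-II low cells. Its ratio was 1.34, so the 6 lower genes did not include it. Named after their values were seen, Pdgfrb had a ratio of 1.75, Cspg4 1.11 and Col1a1 0.623, and they were not called either. Dcn, a matrix gene of fibroblasts, was at 30.4 CPM per kilobase in MHC-II high and 284 in MHC-II low cells. Basal and immature mTEC markers, Krt5 and Krt14 among them, were lower too, in 7 of 9 cases against 10.9% of all genes. The part of each of these in the difference of Pmp22 was not tested, and in bulk samples fewer cells of a type and less RNA per cell cannot be told apart.

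Pmp2, a fatty acid binding protein of peripheral myelin and the classic antigen of experimental neuritis in rats, gave the highest ratio of the 8 genes. It had 4531 reads (29.6 CPM) in MHC-II high cells and 255 reads (5.02 CPM) in MHC-II low cells. The ratio was 5.90 (interval 5.20 to 6.72), and 3.62% of the genes tested had a higher one. Fabp9, the next gene listed after Pmp2 and a family member known from testis, was 4.64-fold higher in MHC-II high cells (4.28 to 5.04). On its other side Gm9833 had a ratio of 1.92.

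Most of the fatty acid and retinoid binding family shared the direction of Pmp2, with 10 of 14 genes higher in MHC-II high cells, 1 lower and a median log2 ratio of 2.17, where 14.5% of all genes were higher. The 10 include Fabp3 (0.926 CPM in MHC-II low cells) and Fabp7 (0.808 CPM), which passed the minimum only through MHC-II high cells. Fabp6, an ileal bile acid binding protein, was 15.2-fold higher (limits 11.5 and 20.5). Fabp5 of epidermis was at 794 CPM per kilobase in MHC-II high and 330 in MHC-II low cells, and Fabp4 of fat cells at 641 in MHC-II high and 248 in MHC-II low cells. Members of the family resemble each other in sequence, and reads on close copies could be shared.

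Aqp4, the astrocyte water channel, had 3833 reads (25.1 CPM) in MHC-II high cells and 2007 reads (39.5 CPM) in MHC-II low cells. The ratio was 0.634 (interval 0.601 to 0.670), a log2 ratio of -0.66 that turned to 0.35 with RPKM read totals. Its neighbours in the gene table were scarce, Chst9 with 43 reads in MHC-II high and 22 in MHC-II low cells and 4933424G05Rik with 32 and 37.

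Other aquaporins went in both directions, as 3 of 9 that passed the minimum were higher and 1 was lower. Over all genes 14.5% were higher and 10.9% lower. The median log2 ratio of the 9 aquaporins was 0.82. Aqp3, the glycerol channel of epidermis, was 4.69-fold higher in MHC-II high cells, at 64.8 CPM per kilobase against 13.8, and Aqp8 was 9.90-fold higher, though it reached only 0.591 CPM in MHC-II low cells and passed the minimum through MHC-II high cells. Aqp1, a water channel of vessel walls and red cells, was 11.2-fold lower in MHC-II high cells, where endothelial markers were lower as well and globin genes such as Hbb-bs were 56.4-fold lower. Their part in the difference of Aqp1 was not tested. Of 9 genes of the dystrophin complex and its matrix partners, which anchor Aqp4 in astrocytes, 5 were lower in MHC-II high cells and 0 higher. The shares over all genes were 10.9% lower and 14.5% higher. But with RPKM read totals 1 of the 9 was lower and 1 higher, where 471 of all 16016 genes were lower and 7232 higher. Agrn, a matrix proteoglycan gene, was 3.52-fold lower and the laminin gene Lama2 4.20-fold lower, and Dag1, the dystroglycan gene, had a log2 ratio of -0.98. The list's median was -1.31, or -0.31 with RPKM read totals.

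**Figure D3:**
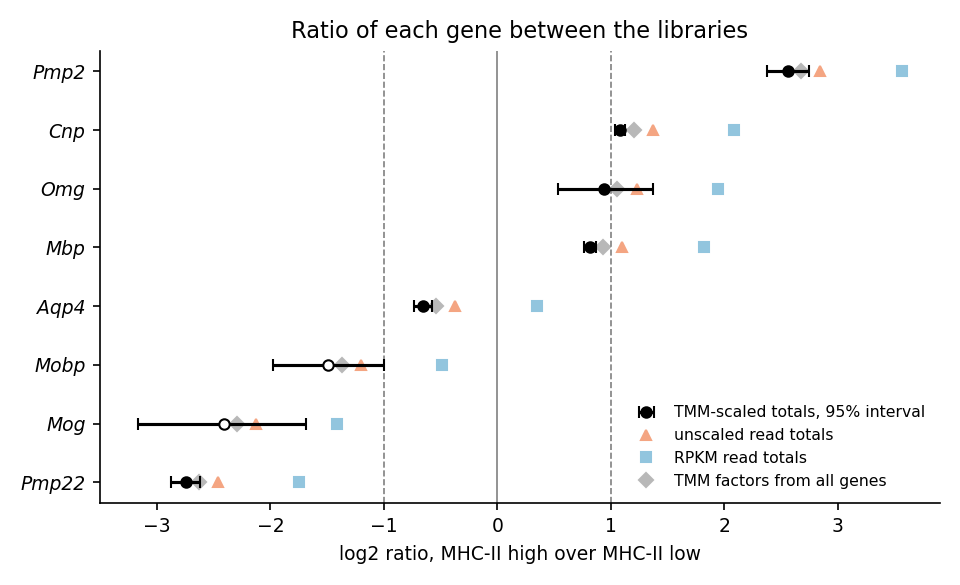
log2 ratio of each gene, MHC-II high over MHC-II low, with its 95% interval under TMM-scaled totals (black, open where the gene is under the minimum) and its value under 3 other scalings, and dashed lines at 2-fold. Pmp2 (2.56) and Cnp (1.08) lie to the right of the lines and Pmp22 (-2.75) to the left, and Aqp4 changes side with the RPKM read totals.

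The sizes of the ratios, and the direction for Aqp4, moved with the scaling of the libraries. With unscaled read totals all log2 ratios moved by 0.29 and with the RPKM read totals by 1.003. Over all genes 57.0% of the calls were higher, against 72.9% with unscaled totals, 93.9% with RPKM read totals and 42.6% without the expression minimum. In the deposited RPKM values themselves Cnp was at 68.7 in MHC-II high and 16.2 in MHC-II low cells, Pmp2 at 15.5 and 1.31, and Pmp22 at 1.91 and 6.41. Pmp2 and Cnp stayed beyond 2-fold higher and Pmp22 beyond 2-fold lower under each of the alternatives run. Leaving out the minimum, a 1.5-fold threshold and a classic Mbp transcript could not have changed these calls.

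Among 18 other myelin sheath genes that passed the minimum, 3 were higher and 3 lower in MHC-II high cells, against 14.5% and 10.9% of all genes. The lower ones include Ncmap, which passed the minimum only through MHC-II low cells (0.635 CPM in MHC-II high and 1.93 CPM in MHC-II low cells). With RPKM read totals 8 of 17 sheath genes were higher and 2 lower, against 7232 and 471 of all 16016 genes past the minimum. The list's median log2 ratio was -0.08, a sign that changed with unscaled totals, RPKM read totals and TMM factors taken from all genes. Cadm4, an adhesion molecule between Schwann cell and axon, was 9.64-fold lower (limits 9.12 and 10.2), and Cldn11, the tight junction protein of central myelin, was 4.71-fold lower. Cd9, a tetraspanin of many cell types, was at 176 CPM per kilobase in MHC-II high and 270 in MHC-II low cells.

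Enzymes of myelin lipids included 2 of 9 genes that were higher and 0 that were lower, against 14.5% and 10.9% of all genes. The list's median log2 ratio was 0.16. The higher genes were Fa2h, which hydroxylates myelin fatty acids, at 4.44-fold (3.65 to 5.43), and Ugt8a, which makes galactosylceramide, at 3.80-fold (3.12 to 4.67). Cers2 and Sgms1 had log2 ratios of -0.45 and 0.16. Hmgcs1, an enzyme of cholesterol synthesis, is one that nearly every cell uses and was listed at 0 reads in both libraries, so its 0 is not read as a level.

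Of 10 regulators of oligodendrocytes and Schwann cells 3 were higher and 0 lower, where 14.5% of all genes were higher and 10.9% lower. The median log2 ratio of the regulators was 0.52. Olig1 had 1070 reads in MHC-II high cells and 33 in MHC-II low cells, 10.8-fold higher (7.62 to 15.7), and Olig2 had 370 and 28, 4.39-fold higher. Neither reached 1 CPM in MHC-II low cells, so both passed the minimum through MHC-II high cells alone. Nkx6-2 had a ratio of 1.93 and Egr2, the Schwann cell factor also induced in many stimulated cells, one of 0.811.

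Markers of the cells that make myelin, and of astrocytes, had reads in both libraries where both were listed. Mag, an oligodendrocyte marker, was listed for MHC-II high cells only and was left out of the counts. Against 14.5% of all genes called higher and 10.9% called lower with TMM scaling, these lists had calls in both directions. RPKM read totals gave 10 higher and 2 lower of 18 for Schwann cells and 9 and 2 of 11 for oligodendrocytes. For astrocytes they gave 7 and 0 of 10. Over all 16016 genes past the minimum, those totals called 7232 higher and 471 lower. With TMM scaling, of 18 Schwann cell markers 4 were higher and 4 lower, with a summed level of 336 CPM in MHC-II high and 466 CPM in MHC-II low cells. The higher ones include Fabp7, which passed the minimum only through MHC-II high cells (6.52 CPM in MHC-II high and 0.808 CPM in MHC-II low cells). Cdh19, which passed the minimum only through MHC-II low cells (0.465 CPM in MHC-II high and 5.495 CPM in MHC-II low cells), was 11.8-fold lower, and the sodium channel gene Scn7a 10.2-fold lower, while Erbb3 had a log2 ratio of 0.37. Scn7a alone made up 12.7 CPM of the Schwann cell sum in MHC-II high and 129 CPM in MHC-II low cells. Of 13 oligodendrocyte markers 4 were higher, Olig1 and Olig2 among them, and 2 lower, with 143 CPM in MHC-II high and 296 CPM in MHC-II low cells. Enpp2, a secreted lipid enzyme, made up 50.9 CPM of this sum in MHC-II high and 242 CPM in MHC-II low cells, 4.75-fold lower in MHC-II high cells. Of 10 astrocyte markers 3 were higher and 1 was lower, with 611 CPM in MHC-II high and 324 CPM in MHC-II low cells. Gja1, a connexin of astrocytes and epithelia, was 2.20-fold higher, Slc1a3 2.09-fold and Slc1a2 2.28-fold, and Aldh1l1 was 2.22-fold lower. Of the astrocyte sum, Gja1 held 294 CPM in MHC-II high and 134 CPM in MHC-II low cells, and Slc1a3 held 210 and 101 CPM. None of the markers compared in these 3 lists was at 0 reads in either library, and their part in the values of the 8 genes was not tested.

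**Figure D4:**
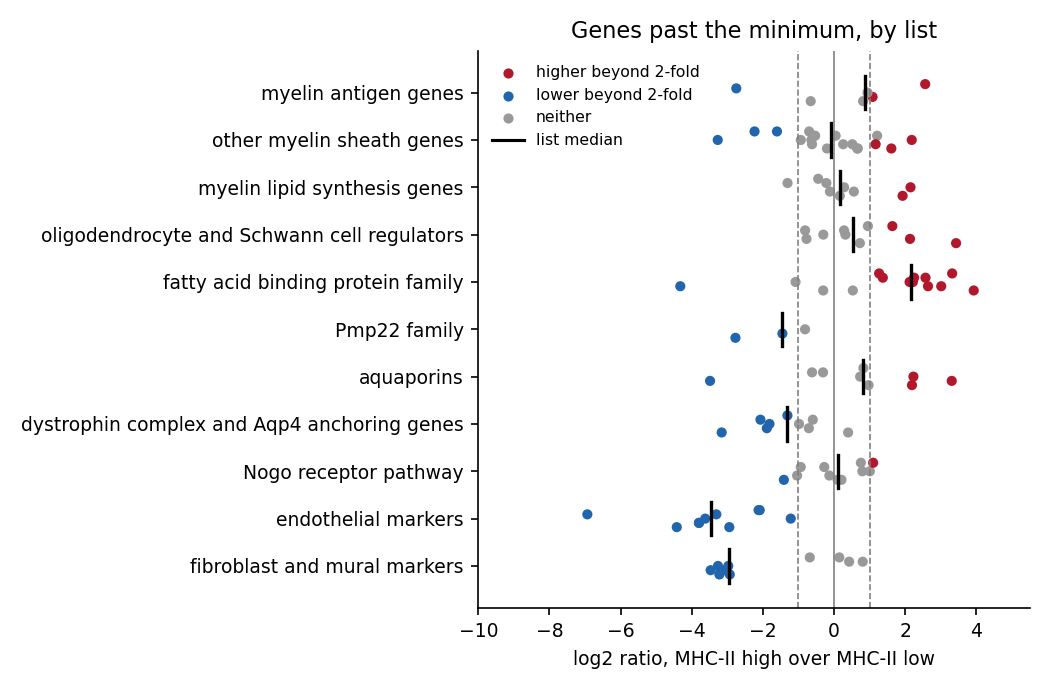
log2 ratio, MHC-II high over MHC-II low, of each gene past the minimum in 11 lists, coloured by whether its whole 95% interval lies beyond 2-fold, with the list median as a black bar. The fatty acid binding protein family lies mostly to the right (median 2.17), and endothelial markers all lie to the left (median -3.47).

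Among genes that bear on the labels, H2-Aa, an MHC class II chain, had 4485 CPM in MHC-II high and 2240 CPM in MHC-II low cells, a ratio of 2.00 that was not called. Named after its value was seen, H2-Ab1, the partner chain, had a ratio of 1.26 and was not called either. Epithelial genes were abundant in both, with Krt18 at 858 CPM per kilobase in MHC-II high and 1305 in MHC-II low cells. Of 9 markers of thymic epithelium 1 was higher and 1 lower. Beside this count and those that follow, 14.5% of all genes were higher and 10.9% lower. Aire was 27.1-fold higher in MHC-II high cells, and 7 of 9 mature mTEC markers were higher and 0 lower. Of 7 dendritic cell and macrophage markers 4 were higher and 0 were lower, with a summed 69.5 CPM in MHC-II high and 30.0 CPM in MHC-II low cells. Of 8 thymocyte markers 1 was higher and 1 lower, and of 6 erythroid markers 4 were lower and 0 higher. All 4 were globin genes, and Hba-a1 and Hba-a2 had identical reads, so that with 1 of them left out 3 of 5 were lower and the list summed to 76.2 CPM in MHC-II high and 2633 CPM in MHC-II low cells. Their part in the ratios of Cnp, Pmp2 and the other genes was not tested.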

How the data were processed

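Poly-A RNA of MHC-II high and MHC-II low mTEC was measured in 1 library each. The authors deposited, per the file headers, a read count, a length and an RPKM value for each RefSeq transcript. Per the submitters' processing notes, mm9, CASAVA, Bowtie 1.0.0 and bedtools were used. Their settings are not given in the sources used here. As the series' design text has it, about 100 ng of RNA, 15 PCR cycles and a kit without strand gave reads of 2 ends of 100 bases. The deposited RPKM equalled the count over length and over a total of 213854095 (high) or 142330178 (low) reads.

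Stray lines (18 high, 36 low) were left out, and 839 extra lines of genomic copies in the high table were summed. Of 29920 accessions, 29800 were in both tables with the same length and were used. Symbols came from RefSeq GRCm38.p6 (29352 accessions) and GENCODE vM21 (174). Each gene was its transcript with the most reads, giving 23411 genes with 138368543 (high) and 56077471 (low) reads. Accessions of 1 table only were left out, or read as 0 as an alternative.

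CPM used totals scaled by TMM (edgeR 4.0.16, R 4.3.3), 152834158 and 50769789 for the high and the low library, with factors from genes of at least 1 mean CPM. Ratios had exact 95% Clopper-Pearson intervals (scipy 1.17.1), and a gene was called when the whole interval lay beyond 2-fold and its mean was at least 1 CPM. The calling was also run on simulated Poisson counts. As the intervals assume such counts, that run cannot show how often calls err in these libraries. Alternatives were unscaled totals, DESeq2 1.42.0 size factors, RPKM totals, no minimum, other transcripts, a 1.5-fold threshold and, added after seeing the data, TMM factors from all genes and a classic Mbp transcript. From each of 20 further lists the 2 genes with the most reads per kilobase and the 2 with the largest ratio could be named, besides the genes next to a member. Some of the genes this rule names are not reported here. Neighbours are the nearest genes that both tables list. The 8 genes and the lists were chosen with earlier results of these data known.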

Additional observations from a re-analysis of the deposited data

Results flagged for a closer look

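Mag, the myelin-associated glycoprotein gene of the layer next to the axon, had 1285 reads in MHC-II high cells, or 8.41 CPM and 3.46 CPM per kilobase. It was singled out because it has a line in the table of MHC-II high cells only. The signal lies above the 0.0196 CPM that a count of 0 allows, and no comparison between the fractions was made.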

How the results depend on the processing

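The ratio of each of the 8 genes was taken under 9 alternatives. Not all of these could change it. Leaving out the minimum and the 1.5-fold threshold use the same ratios, and the classic Mbp transcript alters Mbp only. Of the 72 values 67 kept their direction and their call, a count that was thus fixed in part beforehand. They include every value of Pmp2 (log2 2.56 to 3.56), Cnp (1.08 to 2.08) and Pmp22 (-2.75 to -1.75). Mbp came to lie beyond 2-fold with unscaled read totals (log2 1.10) and with RPKM read totals (1.82), and passed a 1.5-fold threshold at 0.82. With RPKM read totals Aqp4 turned from -0.66 to 0.35, Omg came to 1.94 with its whole interval (1.54 to 2.37) beyond 2-fold but its mean under the minimum, and Mobp came to -0.49. By its transcript with the most reads per kilobase Mobp was at -0.59. Without an expression minimum Mog was called lower at -2.41, so that 2 of the 8 genes were lower. Over all genes, 2530 were higher and 1907 lower in MHC-II high cells, against 7232 and 471 with RPKM read totals and 3973 and 3562 with a 1.5-fold threshold, and 3822 were lower without a minimum. The median of other myelin sheath genes turned from -0.08 to 0.21 with unscaled totals, 1.05 with RPKM read totals and 0.040 with TMM factors from all genes. That of thymocyte markers turned from -0.90 to 0.11 with RPKM read totals. The shifts under other scalings follow from the library totals, which move all log2 ratios alike. The other changes come from the transcript, the minimum or the threshold chosen. Which totals are right was not tested. No paired analysis was possible because each group has 1 library, and for the same reason no replicate could be left out. The 26 reads of Mog in MHC-II high cells and 58 of Omg in MHC-II low cells limit what can be said of these genes.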

Other observations

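Among 15 further antigens named in demyelinating disease that both tables list, 5 were higher in MHC-II high cells and 3 lower. The shares over all genes were 14.5% and 10.9%. The median log2 ratio of the 15 was 0.63. Cntn1, an axonal adhesion molecule of the paranode, had 3125 reads (20.4 CPM) in MHC-II high cells and 98 reads (1.93 CPM) in MHC-II low cells, 10.6-fold higher with limits of 8.66 and 13.1. Tkt, a metabolic enzyme made in nearly all cells, was 2.95-fold higher, at 140 CPM per kilobase in MHC-II high and 47.6 in MHC-II low cells. Picked after their values were seen, Cntnap1, the partner of Cntn1 at the paranode, had 84.3 CPM in MHC-II high and 13.5 CPM in MHC-II low cells, and Nfasc, the glial and axonal neurofascin gene, 122 and 54.3 CPM. Aqp1, described with the aquaporins, and the small heat shock protein gene Cryab, at 37.7 CPM in MHC-II high and 94.4 CPM in MHC-II low cells, were among the 3 lower genes.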
